A study of Rattus norvegicus with 10 samples.

Results

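CREM and 7 further regulators of transcription in spermatids were followed in round spermatids, which are haploid germ cells formed by meiosis, from young and aged Brown Norway rats. The 8 genes, Crem, Fhl5, Tbpl1, Gtf2a1l, Taf7l, Rfx2, Rfx3 and Sox30, were taken by name from the 32545 genes of each file, and each name matched 1 row. The young group came from animals of 4 to 6 months and the aged group from animals of 18 to 20 months, with 5 libraries in each. Per the labels, all animals were WT (wild type) and were kept under normal conditions with free food and water, and the cells were separated by STA-PUT, in which testis cells sediment at speeds set by their size. Whether each library came from its own animal is not given in the labels, so p-values measure the spread between these libraries. Levels are FPKM, fragments scaled to gene length and library total.

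Round spermatids still transcribe actively and then fall silent as their chromatin is packed, so much of the programme for building sperm is switched on in a short window. CREM, a cAMP-responsive transcription factor, binds the cAMP response element (CRE) and is known to switch on many genes of this programme, helped by the LIM-domain coactivator ACT, which is encoded by Fhl5. Testis-enriched relatives of general transcription factors act beside it: TBPL1 is related to the TATA-binding protein TBP, GTF2A1L to the large subunit of TFIIA, and TAF7L to the TFIID subunit TAF7. RFX factors bind the X-box of genes for cilia and flagella, and SOX30 is a SOX-family factor of germ cells needed to pass the round spermatid stage.

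All 8 genes were expressed in every library, and 4 of them were among the most abundant transcripts. Gtf2a1l averaged 298 FPKM, Rfx2 283 FPKM, Fhl5 273 FPKM and Tbpl1 263 FPKM over the 10 libraries, each above at least 97.2% of the 12985 genes tested. Sox30 averaged 75.6 FPKM, Crem 53.8 FPKM, Rfx3 30.3 FPKM and Taf7l 12.8 FPKM, against a median of 8.10 FPKM over all genes tested. The ranges of the first 4 overlapped, and Gtf2a1l exceeded Rfx2 in 7 of 10 libraries, Rfx2 exceeded Fhl5 in 8 and Fhl5 exceeded Tbpl1 in 8. Below them the order was the same in all 10 libraries: Tbpl1 stood 3.47-fold above Sox30, Sox30 1.41-fold above Crem, Crem 1.77-fold above Rfx3 and Rfx3 2.36-fold above Taf7l, with no overlap between neighbours.

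**Figure D1:**
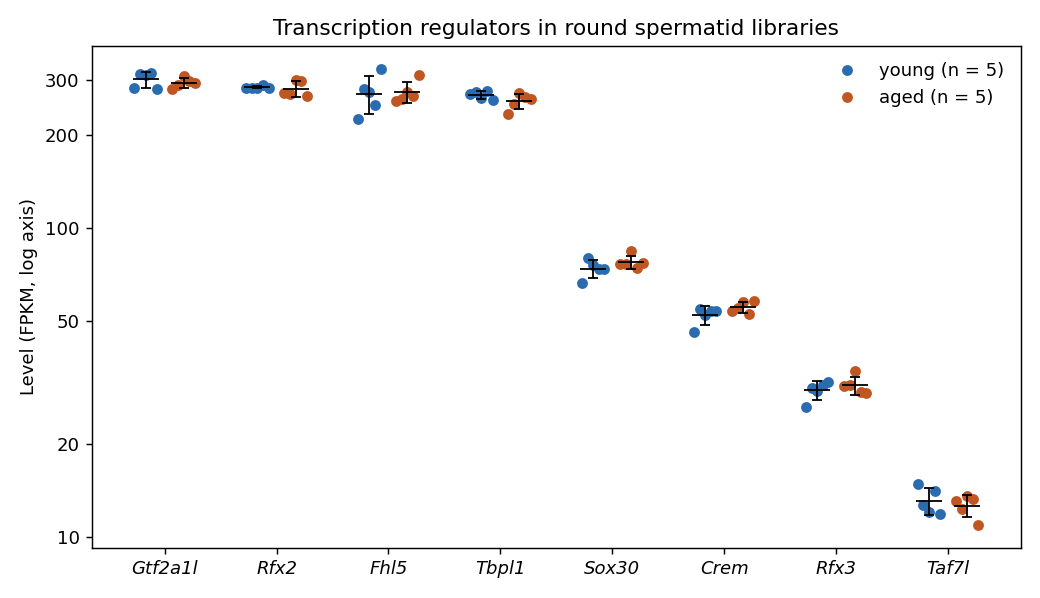
Level of each gene in FPKM (log axis) by group, with 1 point per library and the mean ± SD in black (n = 5 per group). The young and aged points of every gene overlap, and the first 4 genes lie at 225 to 327 FPKM while Taf7l lies at 10.9 to 14.8 FPKM.

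No difference between the ages passed the test for any of the 8 genes. All had passed the filter of a mean of at least 1 FPKM; 0 had an adjusted p under 0.05 (limma on log2(FPKM + 1), Benjamini-Hochberg over all 12985 genes) and 0 an unadjusted p under 0.05. Over all genes tested, 0% passed with an adjusted p under 0.05. At an unadjusted p under 0.05 the share was 11.9%, made of 5.54% higher and 6.35% lower in aged libraries. The split depended on scaling: 46.6% of these genes were higher as deposited, 61.2% after TPM scaling and 61.4% with voom on recovered fragments. The groups overlapped for all 8 genes, against 2.6% of genes without overlap among those tested. On the log2 scale 4 of the genes had positive and 4 negative differences, while 45.5% of all genes tested had positive ones. The median of the 8 was 0.0038, against -0.015 over all genes tested. The estimates ran from -0.07 for Tbpl1 to 0.09 for Crem, and the 95% intervals reached a fold of at most 1.17 (Fhl5) and at least 0.861 (Taf7l) on the FPKM + 1 scale.

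**Figure D2:**
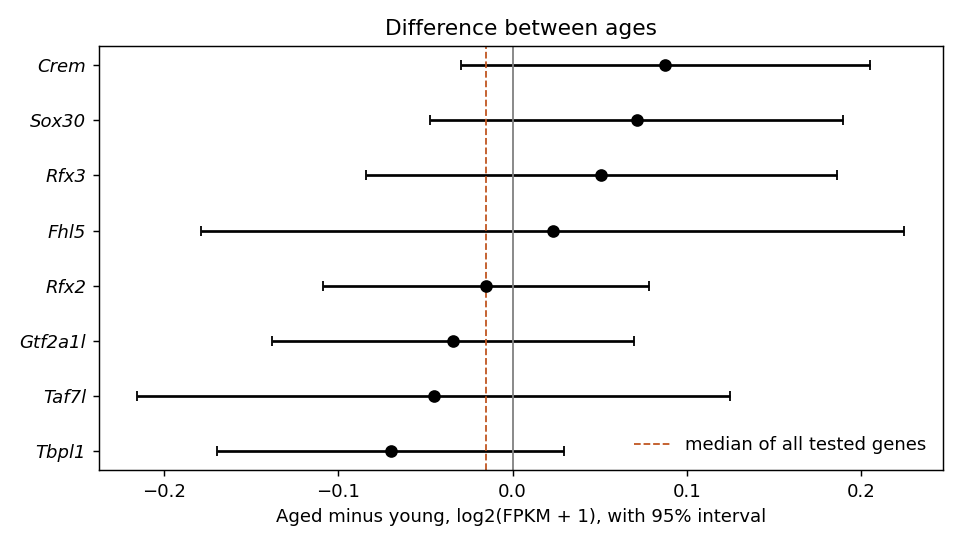
Aged minus young difference of each gene on the log2(FPKM + 1) scale, with its 95% interval from limma (n = 5 per group). Every interval holds 0, and the dashed line marks the median of all genes tested at -0.015.

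The labelled cell type was checked against marker lists. Genes of round spermatids were abundant, with Acrv1, an acrosomal protein, at 205 ± 25.7 FPKM in young and 224 ± 17.9 FPKM in aged libraries (SD, n = 5). Somatic cell markers had higher levels with age: the summed level of the 37 Sertoli, Leydig, peritubular and macrophage markers was 96.6 to 148 FPKM in young and 151 to 620.5 FPKM in aged libraries, highest in aged replicate 2 and then aged replicate 1. Their scores overlapped, at -0.72 to -0.13 in young and -0.15 to 1.70 in aged libraries. So did the summed levels of the Sertoli and macrophage lists, while those of the Leydig and peritubular lists did not. All 26 tested somatic markers were higher in aged libraries, against 45.5% of all genes tested. Some of them passed the filter only through their aged values, which favoured this direction in advance. Fcer1g, for example, had means of 0.403 FPKM in young and 2.47 FPKM in aged libraries. Among the somatic markers below the filter, only Rhox5 had a lower mean in aged libraries (0.335 FPKM in young and 0.217 FPKM in aged). Of the 26, 18 had an unadjusted p under 0.05 and 9 had groups without overlap, against 11.9% and 2.6% of all genes tested. Both counts include markers that passed the filter only through their aged values, such as Cyp17a1 (means 0.832 FPKM in young and 9.275 FPKM in aged). The set against all genes therefore favours the markers. The Leydig cell marker Hsd3b1 was at 0 in 4 libraries and the Sertoli cell markers Amh, Rhox5 and Fshr in 1 each. All 10 spermatocyte markers were lower in aged libraries, with a median log2 difference of -0.20, their summed level being 376 to 459.5 FPKM in young and 326 to 424 FPKM in aged libraries. Of the 10 round spermatid markers 7 were higher in aged libraries, of the 10 late spermatid markers 9 were lower, and of 6 tested spermatogonial markers 4 were higher. In bulk libraries fewer cells of a type and less RNA per cell cannot be told apart. Fitted with a covariate for the somatic score, the 8 differences lay between -0.01 (Taf7l) and 0.10 (Crem), and none had an adjusted p under 0.05 (limma).

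Crem (ENSRNOG00000014900, chromosome 17, 57031766 to 57090888, plus strand, in the coordinates of the files, which name no build) makes activators and repressors from 1 gene. RefSeq gives it 3 start windows, each holding 250 bases before and 50 after a start, in build GRCr8. The start of window 2 lies 50731 bases and that of window 3 lies 51424 bases downstream of that of window 1. A promoter inside this gene is known to drive ICER, a short repressor that lacks the activation domain. The windows are shown because they carry the element that CREM itself binds, the full CRE TGACGTCA, in capitals below. The first line is from chr17:58984721-58984768 and the second from chr17:58985435-58985539, both GRCr8, plus strand.
Crem window 2: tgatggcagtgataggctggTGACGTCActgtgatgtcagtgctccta
Crem window 3: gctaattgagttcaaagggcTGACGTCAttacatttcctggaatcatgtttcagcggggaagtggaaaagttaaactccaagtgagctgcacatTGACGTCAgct

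Window 2 held 1 full CRE at -56 from its start, and window 3 held 2, at -35 and 40. Of 33469 RefSeq windows of this length, 1.83% held a full CRE and 0.0418%, those of 12 genes, held 2 or more. Window 1 held no full CRE and 2 matches to its core, TGACG. That core was in 21.2% of all windows on either strand, and each full CRE holds it on both strands. The other 7 genes had no full CRE in their windows. A match is a description of these letters only. The files give 1 value per gene, so transcripts from these starts are summed in what follows.

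The young libraries, replicates 1 to 5, stood at 46.0, 54.7, 52.35, 53.7 and 53.9 FPKM, and the aged ones at 53.9, 54.95, 57.4, 52.7 and 57.9 FPKM. Young replicate 1 was the lowest of all, and the groups overlapped. The means were 52.1 ± 3.55 and 55.4 ± 2.26 FPKM (SD, n = 5), a log2 difference of 0.09 (SE 0.05, 95% interval -0.03 to 0.21, limma adjusted p = 0.501). Without young replicate 1 the difference was 0.044. The counts behind each value, 3566 to 4670 fragments, give a counting error of 1.56%, against a variation of 6.11% between libraries.

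Fhl5 (ENSRNOG00000007680, chromosome 5, 39564242 to 39611053, minus strand), which encodes the coactivator ACT, varied most of the 8. It stood at 225, 282, 275, 249.7 and 327 FPKM in young and at 257, 261, 276, 267 and 313 FPKM in aged libraries. Young replicate 1 was again the lowest, young replicate 5 the highest, and the aged values lay inside the young range. The means were 272 ± 38.2 and 275 ± 22.4 FPKM, a log2 difference of 0.02 (SE 0.09, 95% interval -0.18 to 0.22, limma adjusted p = 0.924). Its direction was decided by single libraries, at -0.042 without young replicate 1, -0.0046 without young replicate 4 and -0.024 without aged replicate 5. Within each library Fhl5 was 4.65 to 6.06 times as abundant as Crem, a ratio of 5.18 in young and 4.95 in aged libraries (geometric means; exact permutation p = 0.437, two-sided). The log2 ratio differed by -0.066, and by -0.0098 without young replicate 5 and -0.11 without young replicate 4.

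Among 15 related factors and coactivators of the CREB and ATF family, 12 were tested, 7 were higher and 5 lower in aged libraries, and 0 passed. Their median log2 difference was 0.016, and its sign turned without young replicate 2 (-0.014), aged replicate 1 (-0.00070) or aged replicate 2 (-0.024). Unadjusted p values under 0.05 were reached by 3 of the 12, against 11.9% of all genes tested. These were Camk4, Crtc1 and Ep300, the last named after its value was seen. Camk4, a kinase gene that also encodes the testis protein calspermin, had means of 183 ± 13.5 (young) and 217 ± 18.2 FPKM (aged), a log2 difference of 0.24 (SE 0.07, limma adjusted p = 0.319). Crtc1, a CREB coactivator, averaged 8.14 ± 0.346 and 9.20 ± 0.468 FPKM, and Ep300, a histone acetyltransferase, 8.01 ± 0.573 and 6.95 ± 0.663 FPKM. All 3 had overlapping groups. The most abundant gene was Fhl4, a testis LIM-domain relative of Fhl5, at 1169 ± 56.4 and 1092 ± 51.9 FPKM. In the same family Fhl1 averaged 1.25 FPKM, and Fhl2 and Fhl3 were below the filter.

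Creb1, the widely expressed relative of Crem, was nearly as abundant as Crem at gene level. It had means of 43.3 ± 3.64 (young) and 46.0 ± 3.25 FPKM (aged). The Crem to Creb1 ratio was 1.21 in both groups and lay between 1.13 and 1.31 in the 10 libraries. The log2 ratio differed by 0.0012 between the ages (exact permutation p = 0.976), and its sign was set by single libraries.

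Genes known to depend on CREM had lower values in aged libraries for 10 of 12 members, with a median log2 difference of -0.10. Over all genes tested 45.5% were higher in aged libraries, and the median was -0.015. None of the 12 reached an unadjusted p under 0.05. Prm1, a protamine and the most abundant of the list, had means of 12150 ± 3121 (young) and 10130 ± 1373 FPKM (aged), a log2 difference of -0.24 (SE 0.17, limma adjusted p = 0.552). Pgk2, the sperm form of phosphoglycerate kinase, averaged 529.8 ± 58.0 and 489 ± 29.6 FPKM. Acrv1 and Ace, which encodes the angiotensin-converting enzyme, were the 2 members with higher means in aged libraries. Late spermatid markers, 7 of which are also on this list, were highest in young replicate 5, at a score of 0.41 against -0.23 to 0.23 elsewhere. Without that library the list's median was -0.037, with 4 members higher, and without young replicate 2 it was -0.16, with 2 higher. Quantile scaling gave -0.057, with 4 higher. Of the 10 members with a RefSeq window, 1 held a full CRE: Tnp1, which encodes the transition protein that precedes protamines. Its element lies at -113 from the start and is shown, in capitals, as the example of a CREM target; the stretch is chr9:82044354-82044421, GRCr8, minus strand.
Tnp1: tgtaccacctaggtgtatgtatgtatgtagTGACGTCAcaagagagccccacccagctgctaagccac

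The relatives of general factors had negative differences, none of which passed. Tbpl1 (ENSRNOG00000011114, chromosome 1, 23977688 to 24002506, plus strand) stood at 272, 274, 263, 277 and 258 FPKM in young and at 234, 251, 272, 264 and 260.4 FPKM in aged libraries. Aged replicates 1 and 2, the libraries with the highest somatic marker levels, held its 2 lowest values. The means were 269 ± 8.08 and 256 ± 14.5 FPKM, a log2 difference of -0.07 (SE 0.05, 95% interval -0.17 to 0.03, limma adjusted p = 0.523). Without both of those libraries the difference was -0.018, without aged replicate 1 alone -0.038, and with the somatic covariate -0.0034. The same 2 libraries had the lowest spermatocyte scores, -0.32 and -0.17. The somatic score was -0.72 to -0.13 in young and -0.15 to 1.70 in aged libraries, so the covariate nearly follows age. The part of either cell type in Tbpl1 was not tested.

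Gtf2a1l (ENSRNOG00000016703, chromosome 6, 12415805 to 12468596, plus strand) stood at 283, 313, 312, 318 and 282 FPKM in young and at 281, 289, 310.5, 298 and 294 FPKM in aged libraries. Young replicates 2 to 4 were the highest, and the lowest values were shared by both groups. The means were 302 ± 17.5 and 294 ± 10.9 FPKM, a log2 difference of -0.03 (SE 0.05, 95% interval -0.14 to 0.07, limma adjusted p = 0.766). Without aged replicates 1 and 2 it was -0.0035.

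Taf7l (ENSRNOG00000026315, chromosome X, 105292338 to 105308554, minus strand), the X-linked member, stood at 14.8, 12.6, 12.0, 14.01 and 11.8 FPKM in young and at 13.0, 12.3, 13.6, 13.3 and 10.9 FPKM in aged libraries. It was highest in young replicate 1 and lowest in aged replicate 5. The means were 13.1 ± 1.31 and 12.6 ± 1.05 FPKM, a log2 difference of -0.05 (SE 0.08, 95% interval -0.22 to 0.13, limma adjusted p = 0.819). Without aged replicate 5 the difference was 0.0016, and without young replicate 1 it was -0.00098. As the lowest of the 8 it rested on 327 to 468 fragments per library, a counting error of 5.04% within a variation of 8.93%.

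Each of these 3 relatives was more abundant than its general counterpart in every library. Gtf2a1 averaged 10.1 FPKM, and Gtf2a1l exceeded it 28.2-fold to 32.2-fold. Tbp averaged 119.7 FPKM, and Tbpl1 exceeded it 1.99-fold to 2.39-fold. Taf7 averaged 2.94 FPKM, and Taf7l exceeded it 3.35-fold to 5.27-fold. The small TFIIA subunit gene Gtf2a2 averaged 52.6 FPKM.

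2 of these ratios had lower means in aged libraries. A ratio of 2 genes in the same library does not depend on how libraries are scaled to each other. Tbpl1 to Tbp was 2.39, 2.18, 2.29, 2.27 and 2.24 in young and 1.99, 2.06, 2.16, 2.21 and 2.18 in aged libraries. Only young replicate 2 lay within the aged range. The log2 ratios averaged 1.18 ± 0.05 and 1.08 ± 0.06, a difference of -0.10 (SD, n = 5; exact permutation p = 0.0238, two-sided, and 0.119 adjusted over the 6 ratios tested). Without aged replicates 1 and 2, which hold the lowest ratios and the highest somatic marker levels, the difference was -0.059 (adjusted p = 0.536, exact permutation). The part of cell composition in this ratio was not tested. Over all its alternatives the adjusted p was 0.0952 to 0.536. Gtf2a1l to Gtf2a1 was 31.7, 29.5, 32.2, 29.7 and 28.5 in young and 28.2, 28.5, 28.4, 29.4 and 28.8 in aged libraries. Young replicates 1 and 3 were the highest, and young replicate 5 lay within the aged range. The log2 ratios averaged 4.92 ± 0.07 and 4.84 ± 0.02 (exact permutation p = 0.0397, and 0.119 adjusted). Neither passed after adjustment. Without young replicate 5 the Gtf2a1l ratio reached an adjusted p of 0.0476, the lowest over its alternatives, which gave 0.0476 to 0.536 (exact permutation). That library was the only young one within the aged range. Leaving it out separates the groups fully, where the exact test returns its lowest possible p, so this value adds no support. The Taf7l to Taf7 ratio, 4.34 and 4.47 (geometric means), had an exact permutation p of 0.722, and its sign turned without young replicate 4, aged replicate 1 or aged replicate 3.

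**Figure D3:**
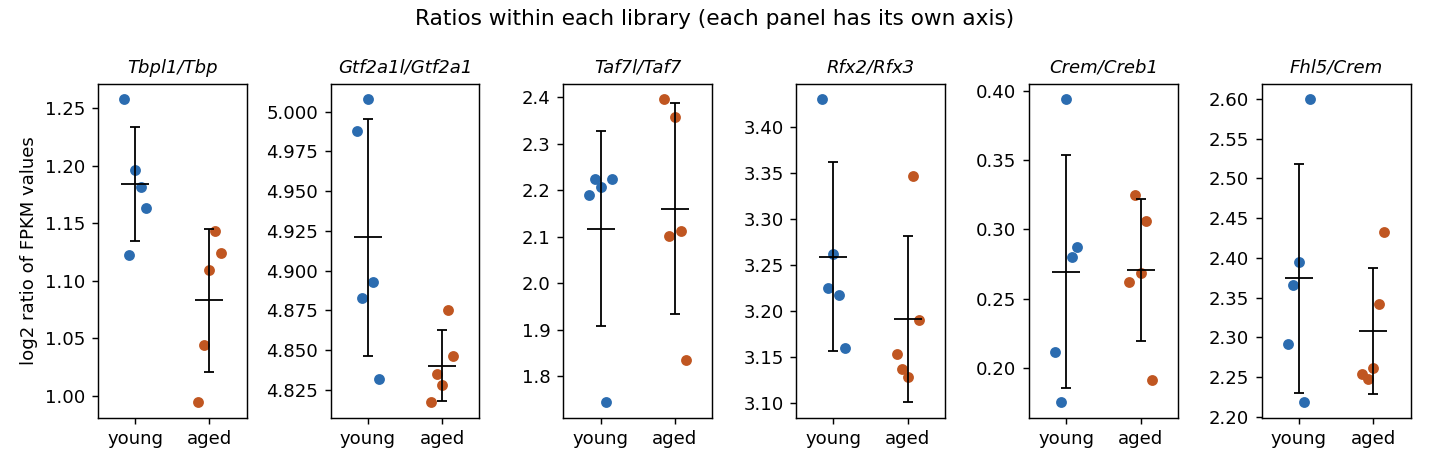
log2 ratio of 2 genes' FPKM values in each library for the 6 ratios, each on its own axis, with the mean ± SD in black (n = 5 per group). The aged points of Tbpl1/Tbp and Gtf2a1l/Gtf2a1 lie low in their panels but overlap the young ones, and none of the 6 passed after adjustment.

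In the rest of the general transcription machinery, of 25 listed genes 19 were tested, 10 were higher and 9 lower, 0 passed, and the median log2 difference was 0.00097, at -0.027 to 0.027 with 1 library left out. Gtf2f1, a TFIIF subunit, was the only 1 of the 19 with an unadjusted p under 0.05, against 11.9% of all genes tested. Its means were 96.6 ± 6.80 FPKM in young and 107 ± 5.66 FPKM in aged libraries. Gtf2e1, a TFIIE subunit, averaged 16.5 ± 1.39 and 14.8 ± 1.42 FPKM. Taf10, a TFIID and SAGA subunit, was the most abundant at 188 ± 22.5 and 188 ± 9.48 FPKM.

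Rfx2 (ENSRNOG00000045846, chromosome 9, 10216205 to 10283407, plus strand), the RFX factor needed for spermatid flagella, stood at 284, 284, 283, 289 and 284 FPKM in young and at 273, 272, 300.4, 299 and 266 FPKM in aged libraries. The young values lay between 283.1 and 288.9 FPKM, inside the wider aged range. The means were 285 ± 2.36 and 282 ± 16.4 FPKM, a log2 difference of -0.015 (SE 0.04, 95% interval -0.11 to 0.08, limma adjusted p = 0.892). The sign turned without aged replicate 5, at 0.0051. Its spread within groups was smaller than that of all but 4.81% of genes tested.

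Rfx3 (ENSRNOG00000014486, chromosome 1, 245859633 to 246110218, minus strand), a regulator of ciliated cells, stood at 26.3, 30.4, 29.5, 31.0 and 31.7 FPKM in young and at 30.7, 30.9, 34.4, 29.4 and 29.1 FPKM in aged libraries. Young replicate 1 was the lowest and aged replicate 3 the highest. The means were 29.8 ± 2.10 and 30.9 ± 2.09 FPKM, a log2 difference of 0.05 (SE 0.06, 95% interval -0.08 to 0.19, limma adjusted p = 0.733). Without young replicate 1 it was 0.0087. In the files' coordinates its span overlaps those of the small RNA genes SNORA51 and U6atac, both listed with means under 1 FPKM. How reads there were assigned is not given, and overlap of exons was not checked. Within each library Rfx2 was 8.74 to 10.8 times as abundant as Rfx3 (exact permutation p = 0.310 between the ages). Their log2 ratio differed by -0.068, and by -0.025 without young replicate 1 and -0.11 without aged replicate 4.

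Both RFX genes hold GTTGCC, the core of 1 arm of the X-box, upstream of their own start; it is shown in capitals because RFX factors bind that element. The Rfx2 stretch is chr9:1758262-1758307 and the Rfx3 stretch chr1:235122515-235122560, both GRCr8, minus strand. For Rfx2 and Gtf2a1l the files give the plus strand, in a build they do not name, while RefSeq places their starts on the minus strand of GRCr8.
Rfx2: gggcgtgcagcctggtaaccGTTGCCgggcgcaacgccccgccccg
Rfx3: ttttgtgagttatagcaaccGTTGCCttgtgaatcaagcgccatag

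The element lies at -141 in Rfx2 and at -118 in Rfx3. Around it the 2 windows share a run of 10 bases, aaccGTTGCC, a run picked after the windows were read; 7 of the 33469 windows hold it on either strand. Of the 10 windows of the 8 genes, 4 held GTTGCC on either strand, against 12.2% of all windows. The other 2 were those of Gtf2a1l, at -234, and Taf7l, at -150. The SOX core ACAAT was found in 1 window each of Crem, Fhl5, Tbpl1, Taf7l, Rfx3 and Sox30, and in 33.7% of all windows. The TATA box TATAAA was in that of Taf7l and in 14.2% of all windows.

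In the RFX family, Rfx8 followed Rfx2 in abundance, at 138 ± 4.38 FPKM in young and 141 ± 7.25 FPKM in aged libraries. Rfx1 averaged 70.3 FPKM, Rfx4 33.7 FPKM, Rfx5 6.38 FPKM and Rfx7 3.79 FPKM. Of 9 listed family members and cofactors 6 were tested, 5 were higher and 1 lower in aged libraries, and 0 reached an unadjusted p under 0.05. The median log2 difference was 0.054, with 0.088 without aged replicates 1 and 2 and 0.034 without young replicate 1. Rfxank, a partner of RFX5, averaged 7.42 ± 0.978 and 8.28 ± 0.239 FPKM, and Rfx4 32.7 ± 2.02 and 34.8 ± 2.05 FPKM.

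Ciliary genes known to be bound by RFX factors had 3 of 9 tested members higher and 6 lower, 0 that passed, and a median log2 difference of -0.10. Without young replicate 1 the median was -0.065. The list scored lowest in aged replicates 1 and 2 and young replicate 5, at -0.064 to -0.063. There the spermatocyte markers scored -0.32, -0.17 and -0.076. Aged replicate 3 went the other way, at 0.036 with a spermatocyte score of -0.16. So did aged replicate 5, at -0.040 with a spermatocyte score of 0.065. The part of the spermatocyte markers was not tested. Ift122, of the intraflagellar transport machinery, had means of 50.3 ± 3.49 (young) and 45.4 ± 2.11 FPKM (aged) (limma adjusted p = 0.382). Bbs4, a BBSome subunit, averaged 17.6 ± 1.38 and 15.7 ± 0.77 FPKM (limma adjusted p = 0.392). These were the 2 of the 9 tested with an unadjusted p under 0.05, against 11.9% of all genes tested. Tekt1, a tektin of the axoneme, was the most abundant at 434 ± 13.9 and 445 ± 20.6 FPKM. The 11 listed genes with a RefSeq window had 16 windows. Of these, 7 windows of 6 genes held GTTGCC, against 12.2% of all windows.

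**Figure D4:**
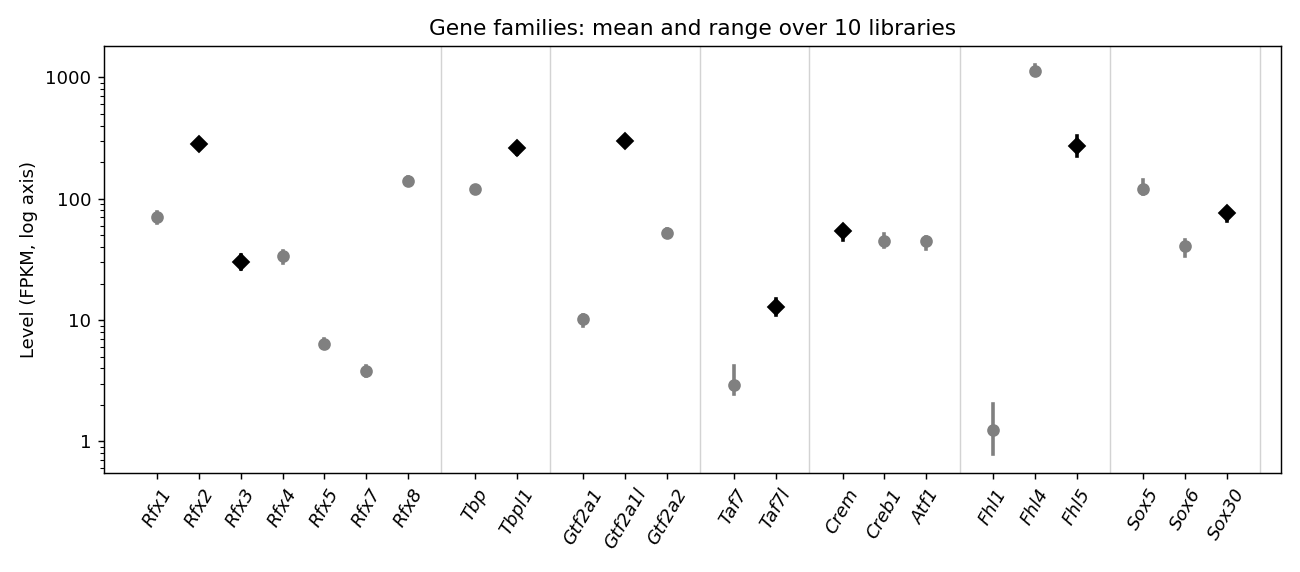
Mean (symbol) and range over the 10 libraries (line) of the 8 genes (black diamonds) and of relatives of their families (grey circles), in FPKM on a log axis. Rfx2 is the highest RFX gene, Gtf2a1l stands far above Gtf2a1, and Fhl4 is above Fhl5.

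Sox30 (ENSRNOG00000006098, chromosome 10, 31074251 to 31102169, plus strand) stood at 66.0, 79.7, 76.0, 73.5 and 73.6 FPKM in young and at 76.1, 76.4, 84.0, 74.1 and 76.9 FPKM in aged libraries. Young replicate 1 was the lowest and aged replicate 3 the highest. The means were 73.8 ± 5.01 and 77.5 ± 3.78 FPKM, a log2 difference of 0.07 (SE 0.05, 95% interval -0.05 to 0.19, limma adjusted p = 0.579). Without young replicate 1 it was 0.033. The related spermatid factors Sox5 and Sox6 averaged 119 FPKM and 40.8 FPKM.

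Of 15 other germ cell regulators 14 were tested, 5 were higher and 9 lower in aged libraries, 0 passed, and the median log2 difference was -0.029. Kdm3a, a histone demethylase known to act on Tnp1 and Prm1, had means of 38.2 ± 2.11 (young) and 33.3 ± 1.91 FPKM (aged), a log2 difference of -0.19 (SE 0.05, limma adjusted p = 0.319). It was the only gene of the list whose groups did not overlap, 1 of 14 tested, against 2.6% of all genes tested. Nr2c2, a nuclear receptor needed for late spermatogenesis, averaged 9.11 ± 0.990 and 7.20 ± 0.592 FPKM, a log2 difference of -0.30 (SE 0.08, limma adjusted p = 0.319). The spermatocyte markers scored -0.32 to -0.16 in aged replicates 1 to 3 and 0.12 and 0.065 in aged replicates 4 and 5, against -0.076 to 0.27 in young libraries. Kdm3a was below every young value in all 5 aged libraries; the part of the spermatocyte markers in either gene was not tested. Ybx2, an RNA- and DNA-binding protein of germ cells, was the most abundant at 1623 ± 68.1 and 1649 ± 107 FPKM. Without aged replicates 1 and 2 together the list's median was 0.028, with 8 members higher, and without aged replicate 1 alone it was -0.0014.

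Young replicate 1 held the lowest value of 4 of them, Crem, Fhl5, Rfx3 and Sox30, which lay -0.27 to -0.19 from their own means on the log2 scale, and the highest value of Taf7l, which lay 0.20 above its mean. In the same library the round spermatid markers had their lowest score, -0.21, and the spermatocyte markers their highest, 0.27. The late spermatid markers were also high there, at 0.23, below only young replicate 5 at 0.41. The summed round spermatid level in young replicate 1, 6816 FPKM, lay inside the young range of 6163 to 8233 FPKM. Aged replicate 3 held the highest values of Rfx2, Rfx3 and Sox30, with a round spermatid score of 0.084 and a spermatocyte score of -0.16. Aged replicate 1 had the lowest spermatocyte score, -0.32, and a round spermatid score of 0.073. It held the lowest Tbpl1 and Gtf2a1l, and Crem, Rfx3 and Sox30 lay only 0.0070 to 0.0195 above their own means there. Aged replicate 5 held the lowest Rfx2 and Taf7l and the highest Crem. The part of cell composition in these library values was not tested.

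**Figure D5:**
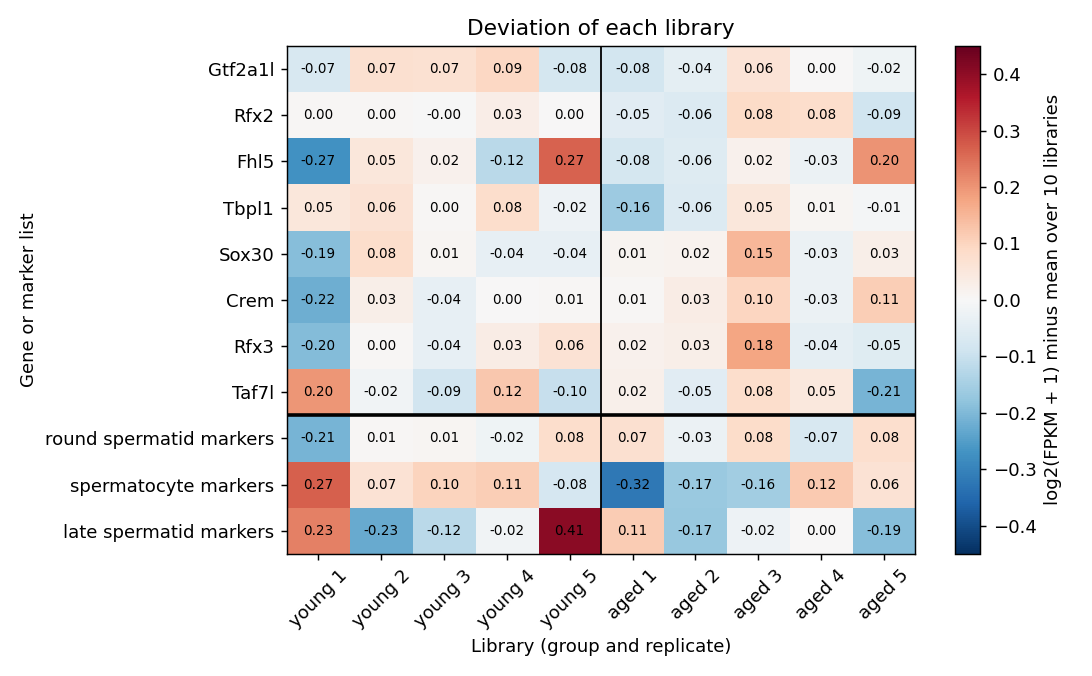
Deviation of each library (columns) from the 10-library mean of log2(FPKM + 1), for the 8 genes above the thick line and for 3 marker lists below it (mean over list members). Young replicate 1 is low for Crem, Fhl5, Rfx3 and Sox30 and high for Taf7l and for the spermatocyte and late spermatid markers.

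Across the 10 libraries the pairs of the 8 genes ranged from a Pearson r of 0.868 for Crem and Sox30 to -0.845 for Fhl5 and Taf7l, as a description over shared libraries. Without young replicate 1 these were 0.647 and -0.757. The closest patterns were sought for each gene by Pearson r of log2(FPKM + 1) among 6424 genes with a symbol and at least 5 FPKM on average; these are the highest of many values and carry no test. For Crem they were Tekt2, a tektin (r = 0.992), and Zhx3, a zinc finger and homeobox factor (r = 0.988), and r was 0.972 and 0.965 without young replicate 1. For Fhl5 they were Oplah and Znrf1 (0.936 and 0.935), and for Sox30 Hdac1l and Cpeb2 (0.968 and 0.959). For Tbpl1 they were Vdac2, a mitochondrial porin, and Acaa1a (0.963 and 0.949), and for Taf7l Socs4 and Tsc22d1 (0.939 and 0.904). Map10 was among those of Gtf2a1l (0.901). For Rfx2 they were Ggn, gametogenetin, and Rogdi (0.958 and 0.931), and for Rfx3 Slc38a9 and Cbll1 (0.971 and 0.954).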

How the data were processed

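SMARTer messenger RNA libraries of 5 young and 5 aged samples were deposited by the authors as FPKM values, 1 file per sample with 32545 genes and their lengths, per the file headers. Alignment with HISAT2 2.0.5 and counting with featureCounts 1.5.0-p3 are named in the submitters' processing notes. Settings, strand and build are not given in the sources at hand. Fragments were recovered from FPKM and gene length: within a relative tolerance of 0.001, 100% of values above 0 came out whole, and totals were 14488222 to 18203223 per library. Intervals and counting errors cover counting or library spread only, and no molecular identifiers are named in the sources.

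Groups were compared with limma 3.58.1 under R 4.3.3 (lmFit, then eBayes with trend). The values were log2(FPKM + 1) of the 12985 genes whose mean reached 1 FPKM. Tests were two-sided and adjusted by Benjamini-Hochberg over all of them, with a threshold of 0.05. Fold changes on this scale understate those of low genes. For 6 ratios within libraries, exact permutation tests used all 252 ways to assign the labels.

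Named genes are the 8 regulators, their ratio partners, the most abundant gene and the 2 with the smallest p of each pathway list, and the 2 closest patterns per gene, of which 1 is not reported here. Other family members were named after their values were seen. The genes and lists were chosen with earlier results of these data known. Foxj1, Taf3, Taf4 and Taf8 matched no gene name. Promoter windows are RefSeq's (GRCr8) and were found for all 8 genes. A marker score averages, over its list, each gene's deviation from its own mean log2(FPKM + 1). Alternatives were another pseudocount, filters and scalings, voom on the recovered fragments, a replicate block, a somatic score as covariate and leaving out libraries. The variance between pairs of replicates was 4.61 to 18.1 times that of counting noise, so no file repeats another. Whether libraries share an animal is not known.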

Additional observations from a re-analysis of the deposited data

Results flagged for a closer look

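In 28 groups of 5 libraries (the 8 genes and 6 ratios at 2 ages), 5 held a library whose gap to its nearest neighbour was over 0.71 of the group's range; chance gives this in about 1 group of 20. Crem stood at 46.0 FPKM in young replicate 1, against 52.35 to 54.7 FPKM in the other young libraries. Rfx2 stood at 288.9 FPKM in young replicate 4, against 283.1 to 284.2 FPKM, a gap within a narrow group. Sox30 stood at 84.0 FPKM in aged replicate 3, against 74.1 to 76.9 FPKM. The log2 ratio of Taf7l to Taf7 was 1.74 in young replicate 4, against 2.19 to 2.23. The log2 ratio of Rfx2 to Rfx3 was 3.35 in aged replicate 4, against 3.13 to 3.19.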

How the results depend on the processing

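Under 20 alternatives none of the 8 genes passed, with a lowest adjusted p of 0.375 (limma), and Crem, Sox30, Rfx3 and Tbpl1 kept their direction in all of them, Tbpl1 at only -0.0034 with the somatic score as a covariate. Leaving out 1 library gave -0.042 to 0.092 for Fhl5, -0.077 to 0.0016 for Taf7l, -0.039 to 0.0051 for Rfx2, -0.050 to 0.12 for the Taf7l to Taf7 ratio, -0.022 to 0.032 for the Crem to Creb1 ratio and -0.10 to -0.059 for the Gtf2a1l to Gtf2a1 ratio. Rfx2 was 0.0065 with voom. With that covariate Rfx2 was 0.032 and Gtf2a1l 0.018. Without aged replicates 1 and 2 together Rfx2 was 0.017, the Taf7l ratio -0.016 and the Crem to Creb1 ratio -0.014; the cause was not tested. Over all genes, 0 to 1 passed when a library was left out (1 without young replicate 1, 1 without young replicate 2) and 0 otherwise. The count at an unadjusted p under 0.05, 1544, was 2379 with no filter and 887 at 5 FPKM, where more or fewer genes were tested, 566 with the covariate and 972 without aged replicates 1 and 2 together. Of these genes 46.6% were higher in aged libraries, 61.2% after TPM scaling and 61.4% with voom; no scaling moved the median of all genes by more than 0.019. Same-numbered samples share only a number: their deviations correlated at -0.158 to 0.0541, and other pairs at -0.178 to 0.202. With a replicate block 1255 genes had an unadjusted p under 0.05, 0 passed, Crem was 0.09 with an adjusted p of 0.567 (limma), and no member or ratio changed its call; the ratios were then tested by exact sign flips, which 5 pairs cannot bring under 0.05. Depth limits Taf7l most.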
